A study of Mus musculus with 30 samples.

Results

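Tamsulosin (TAM) and doxazosin (DOX), blockers of the alpha-1 adrenergic receptors, were compared in the retina of mice that received one or the other before bright light. The comparison holds 6 of the 30 libraries of the study, 3 after TAM and 3 after DOX, chosen by their labelled drug. All animals were Abca4-/-Rdh8-/- mice on a C57BL/6J background, 4 to 6 weeks old, and the study used males and females without a sex label per library. Light groups received 10000 lux for 30 min, after an injection of drug or of the solvent DMSO 30 min earlier, and the neural retina was taken 24 h later. The single-drug experiment held groups of 3 libraries given TAM and light, DOX and light, DMSO and light (called light below), and DMSO with no bright light (called no light below), besides groups given other drugs. A separate mixture experiment held BMT, in which TAM was given with bromocriptine and metoprolol, and MDB, in which DOX was given with the same drugs, both before light, again with light and no light groups. No group received a drug without bright light. Doses are not stated in the labels used here, so a difference between the drugs and a difference between their doses cannot be told apart. The labels do not say whether a library holds 1 animal or several, so p-values measure the spread between these samples.

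Alpha-1 receptors couple through Gq to phospholipase C and raise intracellular calcium. Tamsulosin is a sulfonamide of the phenethylamine type that prefers the alpha-1A and alpha-1D subtypes, and doxazosin is a quinazoline that does not distinguish the subtypes. Abca4 and Rdh8 remove the bleached chromophore all-trans-retinal from photoreceptors, and mice without them lose photoreceptors after bright light. Injured retina is known for a response of Müller glia, in which the filament gene Gfap and cytokine-response genes of the STAT3 pathway are switched on.

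Gene counts summed to 12.0, 18.6 and 17.1 M in the TAM libraries and to 18.3, 21.5 and 20.7 M in the DOX libraries, so single genes are least precise in TAM replicate 1. The libraries differed in their content of other tissue. The lens-fibre score, the mean log2 CPM (counts scaled to a common library total) of 6 lens genes, was 6.58, 3.27 and 3.81 in TAM and 2.38, 7.11 and 2.05 in DOX. Each of the 22 lens-fibre markers had a count in at least 1 of the 6 libraries. Their summed level spanned 3346 to 27184 CPM in TAM and 2078 to 48255 CPM in DOX. The 14 pigment epithelium markers summed to 560 to 1268 CPM in TAM and to 469 to 762 CPM in DOX. Blood-cell markers summed to 40.0 to 105 CPM in TAM and to 411 CPM in DOX replicate 1, with 58.5 and 103 CPM in the other DOX libraries. The labelled tissue was borne out by its markers: Opn1sw, the short-wave cone opsin, stood at 356 to 599 CPM in TAM and 415 to 783 CPM in DOX, and Opn1mw, the middle-wave cone opsin, at 110 to 164 CPM in TAM and 110 to 144 CPM in DOX. Xist stood at 1548 to 2258 CPM in TAM and 1428 to 1634 CPM in DOX, while the Y-linked genes Ddx3y, Eif2s3y, Usp9y, Zfy1 and Zfy2 had no count in any of the 6.

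The light response separated the libraries within the TAM group more than it separated the drugs. The glial and stress genes that bright light raises were near their no light level in TAM replicates 1 and 3, at an intermediate level in the 3 DOX libraries, and at or above the DOX level in TAM replicate 2. The light score shows this over many genes. It is the mean log2 CPM of genes raised by light minus the mean log2 CPM of genes lowered by light. Both sets hold genes called for light against no light in the mixture experiment that changed by 2-fold or more (554 raised and 101 lowered). The libraries of that experiment, where edgeR called 2117 genes for light (13.2%), are not those compared here. On a scale where the no light mean is 0% and the light mean is 100%, the TAM libraries stood at 4.20%, 64.0% and 1.36%. The DOX libraries stood at 29.6%, 44.0% and 39.4%. The mean was 23.2 ± 35.4% in TAM and 37.7 ± 7.36% in DOX (SD, n = 3 each), and the groups overlapped. TAM replicate 2 was the highest of the 6 libraries for 326 of the 554 raised genes (58.8%) and the lowest for 50 of the 101 lowered genes (49.5%). Over the 554 raised genes the median SD of log2 CPM was 0.66 among TAM libraries and 0.29 among DOX libraries; over all 16249 genes tested it was 0.21 among TAM and 0.18 among DOX libraries. The labels used here do not set TAM replicate 2 apart. Whether it was treated and labelled like the other TAM libraries cannot be told from the data. Results that rest on it are therefore given with and without it. It was singled out by its values for these light genes. Adjusted p without it rest on TAM replicates 1 and 3 in that group, are descriptive, and are no independent test of the drugs.

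**Figure D1:**
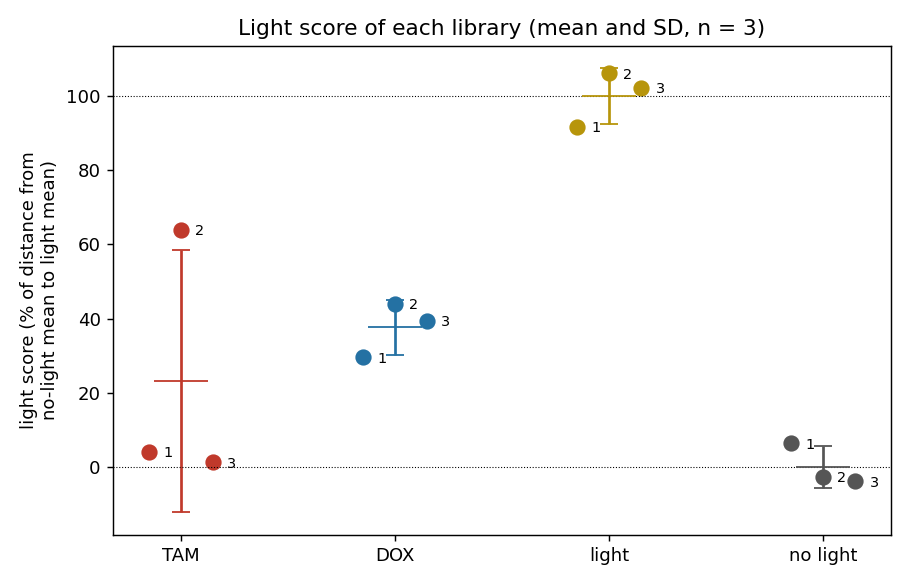
Light score of each library (points, numbered by replicate), in percent of the distance between the means of the no light and the light group, with the group mean and SD (n = 3). TAM replicates 1 and 3 lie at 4.20% and 1.36%, TAM replicate 2 lies at 64.0%, and the DOX libraries lie between 29.6% and 44.0%.

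Between the drugs, edgeR's quasi-likelihood test called 0 of 16249 genes at a Benjamini-Hochberg adjusted p under 0.05 (0% of those tested). The smallest adjusted p was 0.21. At an unadjusted p under 0.05 the test gave 2519 genes (15.5%), of which 1255 were higher (7.72%) and 1264 lower (7.78%) after TAM. Limma voom also called 0, with 2305 genes at an unadjusted p under 0.05, whereas DESeq2 called 130, 46 higher and 84 lower after TAM. Of the 554 genes raised by light, DESeq2 gave an adjusted p for 276 (2.40% of the genes with one) and none for 278, which include Gfap and Edn2 and could not be called. Of the 276, it called 1 higher after TAM (Bst1) and none lower. The estimates bound many differences: of 12973 genes with a mean log2 CPM of at least 1, the 95% interval lay within a 2-fold change in either direction for 90.1% and within a 1.5-fold change for 68.0%. Several genes of the light response, among them Gfap and Edn2, had intervals wider than that. Without TAM replicate 2 the same test called 49 genes (0.302%), 12 higher (0.0739%) and 37 lower (0.228%) after TAM. It called 3 without TAM replicate 1 (Bst1 higher, Gm9008 and Gm14440 lower after TAM), 1 without DOX replicate 3 (Gm6472, higher), and 0 without each of the other libraries; apart from Bst1 these were named after their values were seen.

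Gfap, a filament gene that marks reactive Müller glia (ENSMUSG00000020932, chromosome 11, 102887336 to 102900912, GRCm38), had 24.98, 258 and 39.0 CPM in TAM and 171, 217 and 167 CPM in DOX, against 283 CPM in light and 24.1 CPM in no light on average. TAM replicates 1 and 3 lay below all DOX libraries and TAM replicate 2 above them. The log2 fold change was -0.78 (SE 0.58, 95% interval -2.01 to 0.46, adjusted p = 0.55 by edgeR). Without TAM replicate 2, left out for its values in such genes, it was -2.53 (SE 0.31, adjusted p = 0.0071 by edgeR).

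The promoters of 3 genes are shown because their genes were among the lower 37 and belong to different parts of the response: Gfap for the glial filament, Prss56 for a secreted serine protease and Fos for the immediate early genes. They run from 250 bases before to 50 bases after the RefSeq start (GRCm38.p6), at chr11:102897151-102897450 on the minus strand, chr1:87183064-87183363 on the plus strand and chr12:85473640-85473939 on the plus strand. Capitals mark matches, on either strand, to a STAT motif (TTCCNGGAA), an AP-1 motif (TGANTCA) or a TATA motif (TATANA).
Gfap: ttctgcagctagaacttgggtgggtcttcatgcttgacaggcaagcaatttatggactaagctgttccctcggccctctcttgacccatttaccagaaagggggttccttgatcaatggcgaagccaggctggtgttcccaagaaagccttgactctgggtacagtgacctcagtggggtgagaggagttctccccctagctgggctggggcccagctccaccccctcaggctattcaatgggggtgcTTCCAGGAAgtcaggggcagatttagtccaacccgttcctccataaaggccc
Prss56: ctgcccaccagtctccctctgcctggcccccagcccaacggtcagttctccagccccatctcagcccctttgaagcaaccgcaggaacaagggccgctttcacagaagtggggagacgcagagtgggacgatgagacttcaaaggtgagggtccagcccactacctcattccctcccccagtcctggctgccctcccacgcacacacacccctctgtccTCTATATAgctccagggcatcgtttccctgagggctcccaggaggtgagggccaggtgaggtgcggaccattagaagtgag
Fos: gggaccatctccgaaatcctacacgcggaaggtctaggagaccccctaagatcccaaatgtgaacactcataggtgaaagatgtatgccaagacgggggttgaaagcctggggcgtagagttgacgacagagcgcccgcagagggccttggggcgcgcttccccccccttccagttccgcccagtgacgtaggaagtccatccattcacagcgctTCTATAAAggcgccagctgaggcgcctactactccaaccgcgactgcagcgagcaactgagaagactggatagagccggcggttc
The Gfap window holds a STAT match from base 249, and the Prss56 and Fos windows each hold a pair of overlapping TATA matches, from base 220 and from base 216. Of the 37 lower genes, 25 had a single promoter in the table; 1 held the STAT motif, 1 the AP-1 motif and 9 the TATA motif. Of all 32851 promoters in the table, 1.15%, 7.81% and 24.7% held them, in the same order. A match describes the letters and is not a measured site.

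**Figure D2:**
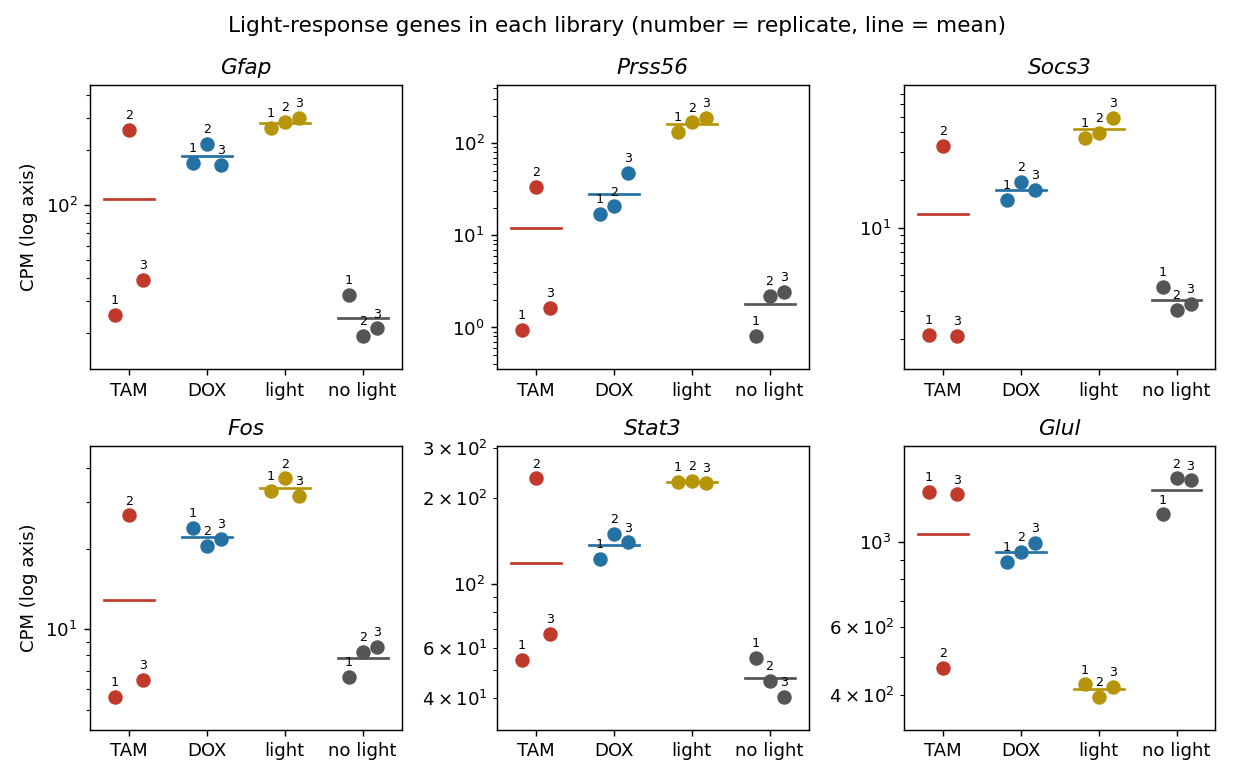
CPM on a log axis of 6 light-response genes in each library (points, numbered by replicate; line, mean of 3) after TAM, after DOX, in light and in no light. In the 5 genes raised by light TAM replicates 1 and 3 lie near no light and TAM replicate 2 lies within or above the DOX range, and in Glul, which light lowers, the places are turned round.

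Among the glial genes, Prss56 had 0.931, 33.8 and 1.63 CPM in TAM and 17.1, 20.7 and 47.3 CPM in DOX, against 164 CPM in light and 1.80 CPM in no light. TAM replicate 2 fell inside the DOX range and the other TAM libraries lay near the no light level. The log2 fold change was -1.19 (SE 0.84, adjusted p = 0.52 by edgeR) with all libraries and -4.43 (SE 0.71, adjusted p = 0.022) without TAM replicate 2. Serpina3n, an acute-phase protease inhibitor, had 5.84, 144 and 3.89 CPM in TAM and 39.5, 62.5 and 101 CPM in DOX. Its log2 fold change was -0.39, and -3.82 (SE 1.03, adjusted p = 0.083 by edgeR) without TAM replicate 2. Limma voom with all libraries gave -1.83, which did not pass. Edn2, the endothelin that stressed photoreceptors release, had 2.29, 18.2 and 2.32 CPM in TAM and 6.75, 6.76 and 9.85 CPM in DOX. The TAM libraries lay on both sides of the DOX range, and the log2 fold change was -0.01 with an interval of -1.44 to 1.42. Of 24 gliosis and injury genes tested, 22 had a negative estimate, with a median log2 fold change of -0.30, beside 0.02 over all genes tested. None passed the test with all libraries, and 1 had an unadjusted p under 0.05. Without TAM replicate 2 the median was -1.05 and 6 passed as lower, beside 0.228% of all genes tested. They were Gfap, Prss56, the filament gene Nes, the transcription factors Stat3 and Cebpd, and the cytokine feedback inhibitor Socs3. Of 20 Müller glia homeostasis genes 1 passed as lower in that setting.

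Of the gp130 cytokine pathway, Stat3 and Socs3 showed the same order of libraries as Gfap. Stat3, which carries signals of gp130 cytokines to the nucleus, had 54.4, 235 and 66.9 CPM in TAM and 123, 150 and 140 CPM in DOX. Socs3 had 2.12, 32.7 and 2.07 CPM in TAM and 14.99, 19.5 and 17.3 CPM in DOX, so TAM replicate 2 exceeded every DOX library for both genes. The log2 fold change of Socs3 was -0.46 (SE 0.71, adjusted p = 0.81 by edgeR), and -3.04 (SE 0.45, adjusted p = 0.014) without TAM replicate 2. Of 20 gp130 and JAK-STAT genes 17 had a negative estimate, with a median of -0.24 with all libraries and -0.62 without TAM replicate 2. Without that library Stat3 and Socs3 passed the test as lower, beside 0.228% of all genes tested. The groups did not overlap for 3 of the 20 genes, TAM above DOX in 1 and below in 2, beside 16.7% of all genes tested.

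Immediate early genes were likewise split within TAM, while Fos and Nr4a1 varied little within DOX. Fos, a subunit of AP-1, had 5.59, 26.7 and 6.46 CPM in TAM and 24.0, 20.5 and 21.8 CPM in DOX, against 33.7 CPM in light and 7.82 CPM in no light. Nr4a1, a nuclear receptor induced by activity, had 5.93, 27.9 and 8.22 CPM in TAM and 22.5, 21.9 and 19.7 CPM in DOX. Junb, another AP-1 subunit, had 1.02, 18.2 and 2.07 CPM in TAM and 19.9, 18.9 and 12.1 CPM in DOX. For all 3 genes TAM replicates 1 and 3 lay below the DOX range. Without TAM replicate 2 the log2 fold changes were -1.87 for Fos (adjusted p = 0.0071 by edgeR), -1.59 for Nr4a1 (adjusted p = 0.0105) and -3.42 for Junb (adjusted p = 0.0409). With all libraries they were -0.75, -0.59 and -1.22, and none of these passed. Of 26 immediate early and AP-1 genes 21 had a negative estimate with all libraries (median -0.32) and 24 without TAM replicate 2 (median -0.85). In the latter setting Fos, Junb, Egr1 and Nr4a1 passed as lower, beside 0.228% of all genes tested. Jund, the AP-1 subunit that is present without stimulation, was the member with the smallest p with all libraries: it had 8.64, 12.2 and 8.47 CPM in TAM and 16.3, 21.6 and 12.9 CPM in DOX, with no overlap (unadjusted p = 0.00829, adjusted p = 0.22 by edgeR). Of the 26 genes, 2 had TAM below DOX without overlap and 0 had TAM above, beside 7.45% and 9.27% of all genes tested.

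Among immune and stress lists, 2 of 24 cell death and p53 genes passed as lower without TAM replicate 2. So did 1 of 19 MHC class I and antigen presentation genes, 1 of 17 NF-kappaB genes and 1 of 17 integrated stress response genes. Over all genes tested 0.228% passed as lower in that setting, and differences between lists in such counts were not tested. Interferon-response genes had a median of -0.04 over 30 genes with all libraries and -0.42 without TAM replicate 2, and 0 passed in either setting. Psmb10, an immunoproteasome subunit, had 2.12, 3.61 and 2.95 CPM in TAM and 4.87, 6.29 and 4.19 CPM in DOX. Tap2, a peptide transporter for MHC class I, had 2.46, 4.35 and 3.45 CPM in TAM and 5.14, 8.54 and 4.62 CPM in DOX. The groups did not overlap for either gene, both picked for a small p in this contrast, with adjusted p of 0.21 and 0.22 by edgeR. Of the 19 MHC class I genes, 2 had TAM below DOX without overlap and 1 had TAM above, beside 7.45% and 9.27% of all genes tested. H2-Q4, a nonclassical MHC class I gene, lay the other way, with 45.5, 37.3 and 32.1 CPM in TAM and 26.8, 23.7 and 28.2 CPM in DOX; reads of such near-identical class I genes may be shared between copies. Without TAM replicate 2, the genes that passed as lower after TAM also included H2-D1 (log2 fold change -1.24), the NF-kappaB cofactor Bcl3 (-3.64), the stress genes Gadd45b (-2.38) and Gadd45g (-1.89), the stress-response factor Atf5 (-0.93) and Crym, a thyroid hormone binding protein (-1.53). Among the 12 genes that passed as higher were Bst1 and the cytokine gene Il18 (1.00).

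Of the 37 genes lower without TAM replicate 2, 31 were among the 554 genes raised by light in the mixture experiment. These 554 make up 3.41% of the genes tested. TAM replicate 2 was singled out by its light score, of which the same 554 genes are a part. The overlap therefore follows in part from that choice, and it was not tested. TAM replicate 2, which the setting leaves out, lay above all 3 DOX libraries for 25 of the 37, below them for 4 and within their range for 8. Over the 554 genes as a whole the median log2 fold change was -0.12 with all libraries and -0.60 without TAM replicate 2; 372 and 477 genes had a negative estimate. Libraries did not overlap for 26 of the 554 genes, TAM above DOX in 4 and below in 22, beside 16.7% of all genes tested (9.27% above and 7.45% below). Over the 101 genes lowered by light the median was 0.24 and 0.44, and 77 and 93 had a positive estimate.

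**Figure D3:**
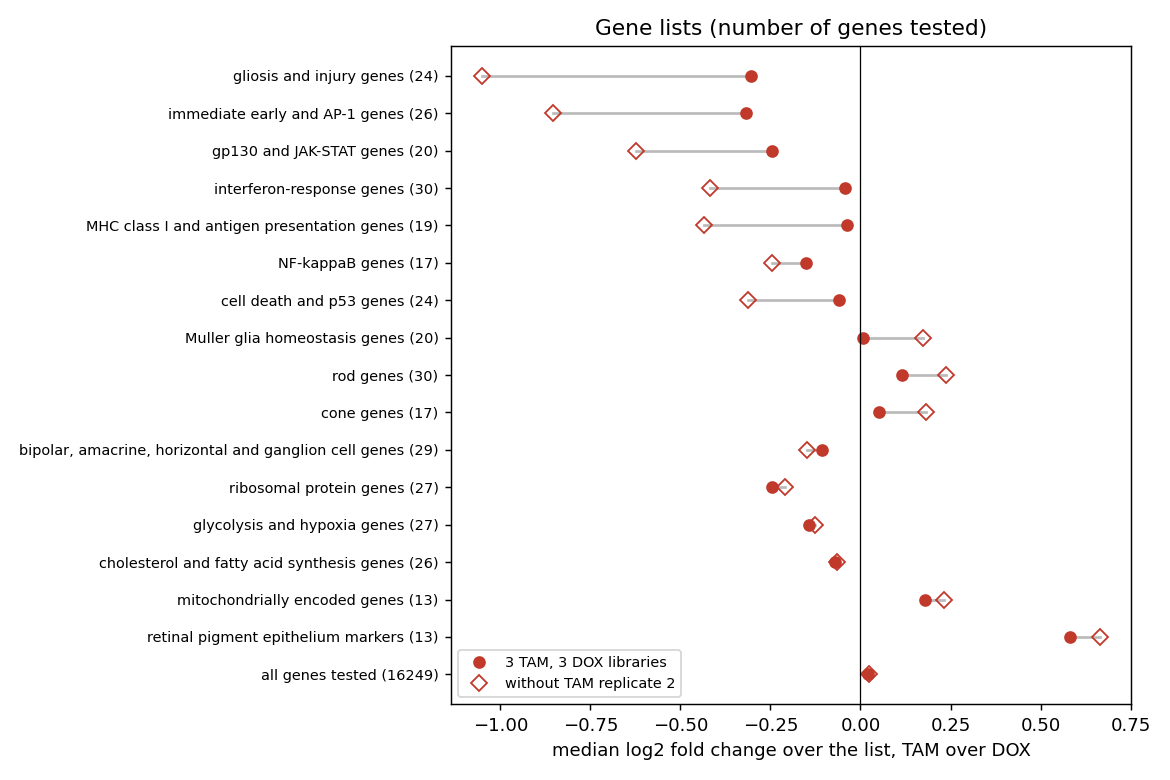
Median log2 fold change, TAM over DOX, of the tested genes of 16 lists and of all genes, with all 6 libraries (filled) and without TAM replicate 2 (open). The lists of gliosis, AP-1 and gp130 genes move to -1.05, -0.85 and -0.62 without that library, while the ribosomal, glycolysis and cholesterol lists stand at -0.21, -0.13 and -0.06, beside -0.25, -0.14 and -0.07 with it.

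Set against light, TAM called 1722 genes (10.6%), 1072 higher (6.6%) and 650 lower (4%), and DOX called 1927 (11.9%), 1104 higher (6.79%) and 823 lower (5.06%). These comparisons share the light libraries. Among the 554 light-raised genes 224 were called lower after TAM and 175 after DOX, with median log2 fold changes of -1.06 after TAM and -0.91 after DOX. Prss56 fell by 3.71 on the log2 scale after TAM (adjusted p = 0.016 by edgeR) and had a log2 fold change of -2.53 after DOX (adjusted p = 0.065). Fos fell by 1.36 after TAM (adjusted p = 0.045 by edgeR) and stood at -0.61 after DOX (adjusted p = 0.34). Passing in one comparison and not in the other is not a difference between the drugs, which for these genes did not pass the test above. A fit of only the groups compared called 298 genes for TAM and 1065 for DOX. The counts also depended on single libraries: TAM against light gave 608 without TAM replicate 3 and 859 without light replicate 2, and DOX against light gave 468, 847 and 521 without DOX replicate 1, light replicate 1 and light replicate 2, in that order. Against no light, edgeR called 0 genes for either drug, with 1327 (8.17%) for TAM and 2110 (13%) for DOX at an unadjusted p under 0.05. These comparisons share the no light libraries, and no other tool was run on them.

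As no gene passed the edgeR test between the drugs with all libraries, no photoreceptor gene of the lists did. The cone opsins Opn1sw (log2 fold change -0.11, 95% interval -0.63 to 0.41) and Opn1mw (0.03, interval -0.26 to 0.33) overlapped between the drugs, as did Nr2e3, a rod transcription factor, with 539, 342 and 704 CPM in TAM and 538, 363 and 372 CPM in DOX. Of 30 rod genes 22 had a positive estimate (median 0.12) and none passed. At an unadjusted p under 0.05, 1 was higher, beside 7.72% of all genes tested. Without TAM replicate 2, 25 rod genes had a positive estimate (median 0.24) and 9 were higher at that p. In that setting 1665 of all 16249 genes tested were higher at that p. Gucy2f, a guanylate cyclase of the photoreceptors, had 543, 416 and 650 CPM in TAM and 503, 364 and 428 CPM in DOX. Of 17 cone genes 10 had a positive estimate (median 0.05). Without TAM replicate 2, 13 cone genes did (median 0.18), and 3 were higher and 1 lower at an unadjusted p under 0.05. In bulk tissue fewer cells of a type and less RNA per cell cannot be told apart. Glul, the glutamine synthetase of Müller glia, had 1353, 469 and 1333 CPM in TAM and 886, 943 and 995 CPM in DOX, against 413 CPM in light and 1366 CPM in no light. TAM replicates 1 and 3 lay above the DOX range and TAM replicate 2 below it; the log2 fold change was 0.16 (interval -0.40 to 0.72), and 0.51 (adjusted p = 0.064 by edgeR) without TAM replicate 2.

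The targets of the drugs were expressed at a low level. Adra1a, the alpha-1A receptor, had 0.169, 0.628 and 0.815 CPM in TAM and 0.719, 1.27 and 1.18 CPM in DOX. Adra1b had 1.27, 1.83 and 1.44 CPM in TAM and 2.05, 3.00 and 1.74 CPM in DOX, and Adra1d had 0.931, 2.04 and 1.32 CPM in TAM and 1.60, 2.02 and 2.12 CPM in DOX. All 3 receptors had a negative estimate, of -0.92, -0.57 and -0.40, all overlapped, and their adjusted p by edgeR were 0.40, 0.52 and 0.63. Of 22 Gq and phospholipase C effectors 15 had a negative estimate (median -0.06) and none passed. Gna11, a Gq-family alpha subunit, had 36.0, 44.9 and 39.1 CPM in TAM and 48.3, 52.96 and 45.5 CPM in DOX (unadjusted p = 0.0219), and Adrbk1, the kinase that desensitizes adrenergic receptors, had 41.7, 51.7 and 47.4 CPM in TAM and 52.5, 59.6 and 53.1 CPM in DOX (unadjusted p = 0.0292). The groups did not overlap for these genes, both picked for a small p in this contrast, and neither passed after adjustment. Of the 22 effectors, 4 had TAM below DOX without overlap and 0 had TAM above, beside 7.45% and 9.27% of all genes tested. Drd4, a dopamine receptor of photoreceptors, had 34.5, 39.3 and 57.0 CPM in TAM and 99.7, 75.5 and 42.7 CPM in DOX (unadjusted p = 0.0359).

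Of the 20 genes with the smallest unadjusted p, 10 in each direction, 1 was among the genes raised by light and none among those lowered. That gene, Bst1, an ADP-ribosyl cyclase (ENSMUSG00000029082, chromosome 5, 43818886 to 43843247, GRCm38), had 19.2, 22.99 and 24.7 CPM in TAM and 12.7, 12.3 and 11.9 CPM in DOX, against 15.4 CPM in light and 14.7 CPM in no light. Every TAM library lay above the light and no light libraries and every DOX library below them. Its log2 fold change was 0.86 (SE 0.14, 95% interval 0.57 to 1.15, unadjusted p = 1.29e-05, adjusted p = 0.21 by edgeR). Against no light, light raised Bst1 in the mixture experiment (log2 fold change 1.17, SE 0.19, adjusted p = 0.0021 by edgeR), where in the single-drug experiment the value was 0.07 (SE 0.13, adjusted p = 0.76). Between the drugs it passed without TAM replicate 1 (adjusted p = 0.046) and without TAM replicate 2 (adjusted p = 0.041). The other 9 genes with the smallest p among those higher after TAM were Gm29055, Ttc39c, the ESCRT ATPase Vps4b, the nuclear exporter Xpo4, Tmem194, the ubiquitin ligase subunit Anapc4, the histone methyltransferase subunit Ash2l, the polyamine enzyme Odc1 and Gm28062. Their log2 fold changes ranged from 0.30 to 0.64. Odc1 had 171, 165 and 178 CPM in TAM and 134, 135 and 142 CPM in DOX, and Vps4b had 55.5, 50.7 and 51.3 CPM in TAM and 42.9, 40.9 and 44.0 CPM in DOX.

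On the lower side the 10 genes of smallest p ran from -0.84 to -0.33. They were Gm996, the neuronal kinase Brsk1, the synaptic protein Prrt2, the complex I subunit Ndufs5, the microtubule linker Clip2, Lmf2, the tubulin Tubb2a, the lactate transporter Slc16a3, the kinase Tesk1 and the JNK scaffold Mapk8ip1. Brsk1 had 41.9, 49.7 and 45.9 CPM in TAM and 67.0, 62.9 and 61.6 CPM in DOX. Tubb2a had 122, 152 and 130 CPM in TAM and 175, 219 and 185 CPM in DOX, and Slc16a3 had 21.8, 22.4 and 28.0 CPM in TAM and 53.8, 36.1 and 33.1 CPM in DOX. The groups did not overlap for any of these 20 genes, which were chosen for their p in the same contrast.

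GC content moved with the sign of these differences. The 1255 genes higher after TAM at an unadjusted p under 0.05 had a median GC content of 41.7%, the 1264 lower genes 52.6%, and all genes tested 45.9%. By deciles of GC content the median log2 fold change was 0.14 in the GC-poorest decile and -0.29 in the GC-richest. The GC slope of a library, the mean log2 deviation of the genes in the top quartile of GC content minus that of the bottom quartile, was -0.31, -0.12 and -0.07 in TAM and 0.22, 0.33 and -0.01 in DOX, so every TAM library lay below every DOX library. With this slope as a covariate, chosen after seeing the data, edgeR called 0 genes and 599 had an unadjusted p under 0.05, against 2519 without it. The slope comes from the same counts and separates the drugs, so the covariate also takes up part of any drug difference. A GC gradient and a drug difference cannot be told apart by this fit.

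**Figure D4:**
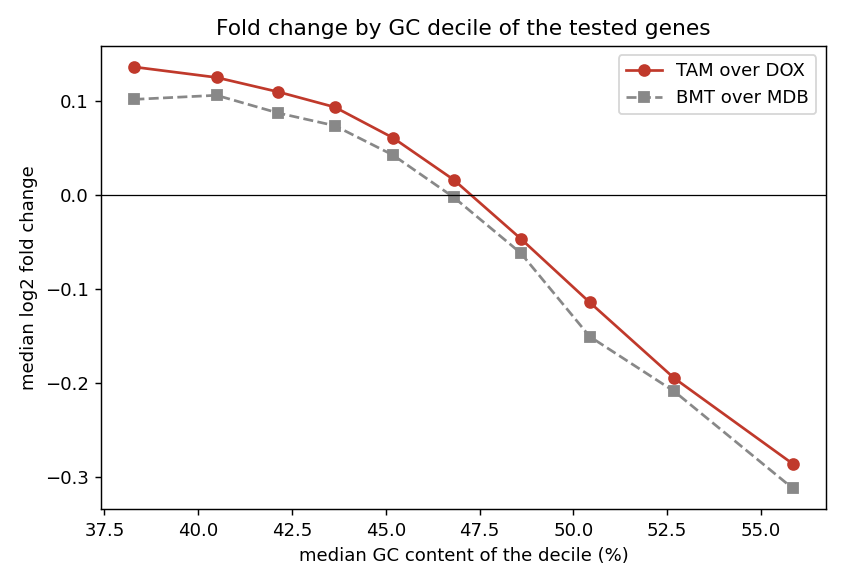
Median log2 fold change of the tested genes by decile of GC content (x axis, median GC content of the decile in percent), for TAM over DOX and for BMT over MDB, which share no library. Both lines descend with GC content, to -0.29 for TAM over DOX and -0.31 for BMT over MDB in the GC-richest decile.

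Median GC content is given beside the lists that follow. It was 53.9% for the immediate early and AP-1 genes, 50.4% for the gliosis genes and 49.4% for the gp130 genes, whose medians between the drugs were -0.32, -0.30 and -0.24 with all libraries. Over all genes, the 3 GC-richest deciles (median GC 50.4%, 52.7% and 55.8%) had median log2 fold changes of -0.11, -0.19 and -0.29 with all libraries and -0.12, -0.21 and -0.31 without TAM replicate 2, where those lists stood at -0.85, -1.05 and -0.62. Over all genes tested 7.78% were lower and 7.72% higher at an unadjusted p under 0.05, and differences between lists in such counts were not tested. Of 27 ribosomal protein genes 20 had a negative estimate (median -0.25; GC 49.1%), and 10 were lower and 1 higher at an unadjusted p under 0.05. Rplp2 had 43.9, 62.9 and 66.7 CPM in TAM and 104, 147 and 81.8 CPM in DOX, though ribosomal protein genes share sequence with pseudogenes. Of 27 glycolysis and hypoxia genes 23 had a negative estimate (median -0.14; GC 49.1%) and 7 were lower at that p. Tpi1, a triose isomerase, had 393, 488 and 473 CPM in TAM and 583, 568 and 588 CPM in DOX, and Pfkl, a phosphofructokinase, had 138, 170 and 218 CPM in TAM and 306, 272 and 222 CPM in DOX. Of 26 cholesterol and fatty acid genes 18 had a negative estimate (median -0.07; GC 47.3%), and 7 were lower and 1 higher at that p. Fasn, the fatty acid synthase, had 97.7, 136 and 115 CPM in TAM and 172, 211 and 141 CPM in DOX. The groups did not overlap for Rplp2, Tpi1, Pfkl and Fasn, and none passed after adjustment. These genes were picked for a small p in this contrast, so the lack of overlap follows in part from that choice. Over all genes tested the groups did not overlap for 16.7%. The part of GC content in these lists was not tested.

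Lists of inner retinal and mitochondrial genes had no member past the test with all libraries, which no gene passed. Of 29 bipolar, amacrine, horizontal and ganglion cell genes 19 had a negative estimate (median -0.11, GC 46.9%). At an unadjusted p under 0.05, 5 were lower, beside 7.78% of all genes tested. Among them were Slc32a1, the vesicular GABA transporter, with 28.6, 43.7 and 35.8 CPM in TAM and 59.7, 70.0 and 47.7 CPM in DOX, and Thy1, a ganglion cell surface protein, with 139, 193 and 170 CPM in TAM and 212, 216 and 217 CPM in DOX. All 13 mitochondrially encoded genes had a positive estimate (median 0.18, GC 37.1%). For mt-Co3, a cytochrome oxidase subunit picked for its small p, the groups did not overlap: 3984, 3641 and 4290 CPM in TAM and 3419, 3023 and 3609 CPM in DOX. Of the 13 genes, 3 had TAM above DOX without overlap and 0 had TAM below, beside 9.27% and 7.45% of all genes tested. All 13 pigment epithelium markers tested had a positive estimate as well (median 0.58, GC 43.9%), beside the summed levels given above. Rpe65, the visual cycle isomerase of that tissue, had 39.8, 30.5 and 110 CPM in TAM and 24.6, 21.5 and 43.1 CPM in DOX. All 5 blood-cell markers tested had a negative estimate (GC 46.5%). Hba-a1, an alpha globin, had 5.50, 9.01 and 12.4 CPM in TAM and 80.5, 12.2 and 16.0 CPM in DOX. The part of pigment epithelium and blood in other results was not tested.

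The mixtures allow the same exchange of drugs to be seen in other libraries. For BMT against MDB, edgeR called 0 of 16007 genes (0%), with 3001 (18.7%) at an unadjusted p under 0.05, limma voom called 0 and DESeq2 called 716. The lens-fibre score was 2.96, 6.51 and -0.78 in BMT and 6.74, 6.68 and 6.37 in MDB, and with it as a covariate edgeR again called 0 genes, with 1513 at an unadjusted p under 0.05. Gfap had 81.3, 57.8 and 28.6 CPM in BMT and 28.6, 41.9 and 52.9 CPM in MDB, and Prss56 had 4.63, 1.97 and 1.16 CPM in BMT and 1.71, 1.54 and 3.59 CPM in MDB. The groups overlapped for both genes, and all 6 libraries lay far below the DOX libraries of the single-drug experiment, with which levels can be set side by side only loosely because the experiments were scaled separately. Bst1 had 16.6, 19.3 and 22.9 CPM in BMT and 22.4, 15.6 and 14.6 CPM in MDB (log2 fold change 0.16, SE 0.19). Of the 10 genes of smallest p lower after TAM, all 10 were lower in BMT than in MDB by estimate, 7 of them at an unadjusted p under 0.05. Of the 10 higher genes, 8 were higher by estimate and 3 at that p. The median GC content was 55.8% for the 10 lower genes and 43.3% for the 10 higher genes.

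**Figure D5:**
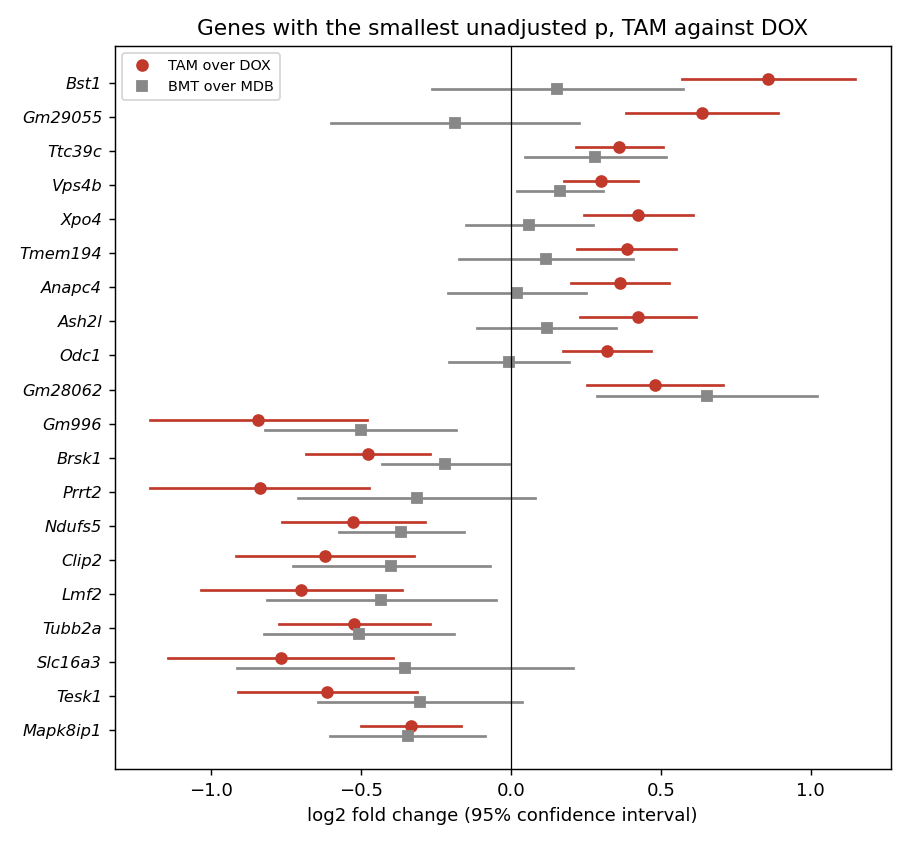
Log2 fold change with its 95% confidence interval of the 20 genes with the smallest unadjusted p for TAM over DOX (circles), beside the same genes for BMT over MDB (squares). The circles were chosen for their p, and Bst1 stands at 0.86 for TAM over DOX and at 0.16 for BMT over MDB.

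Across 15868 genes the TAM to DOX and BMT to MDB log2 fold changes had the same sign for 66.4% (r = 0.24), and for 86.6% of the 2501 genes with an unadjusted p under 0.05 for TAM against DOX. Genes are not independent replicates, and both comparisons had the same gradient with GC content, with r of -0.28 and -0.29 across genes. Within 3 classes of GC content of nearly equal size, r over all genes was -0.01 in the lowest, 0.10 in the middle and 0.34 in the highest. The sign was the same for 65.5%, 60.0% and 73.6% of all genes in those classes, and for 84.1%, 78.5% and 92.4% of the genes with an unadjusted p under 0.05 for TAM against DOX. The test of the difference between both effects, fitted over all 30 libraries, called 0 of 16645 genes with edgeR (0%), where 821 (4.93%) had an unadjusted p under 0.05. Limma voom also called 0 and DESeq2 called 4 (Leprel2, Hmgb1, Gm16439 and 1500011B03Rik, named after their values were seen). Without TAM replicate 2 the same edgeR test called 24, 6 of them with a larger and 18 with a smaller log2 fold change for TAM over DOX than for BMT over MDB.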

How the data were processed

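Poly(A) RNA of neural retina was sequenced with strand information, per the labels' protocols. The submitters' processing notes name Trimmomatic, Bowtie2, TopHat2, eXpress, edgeR and limma and the build GRCm38.p3; no versions are given there. Expected counts estimated by eXpress for 102906 transcripts, not normalized, were deposited by the authors. The deposited normalized FPKM tables and the GC content per transcript are by the authors, per the file headers; deposited fold-change tables were not used.

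Expected counts were summed over 42439 genes, rounded, filtered with filterByExpr, scaled by TMM and fitted with the quasi-likelihood test of edgeR 4.0.16 (R 4.3.3), two-sided, with all 18 libraries of the single-drug experiment or all 12 of the mixture experiment, or all 30 for the difference of effects. Benjamini-Hochberg adjustment ran over all genes tested. The SE is the absolute log2 fold change over the square root of F. Scores use log2 CPM with a prior count of 1. Alternatives used limma 3.58.1, DESeq2 1.42.0 and, for FPKM, log2 with a pseudocount of 1 or 0.1. The scripts were tested on simulated data. Reads of near-identical gene copies may be split between them by the estimate.

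Replicate numbers did not pair the drugs. The members, the 36 gene lists and the tests were chosen with earlier results of these data known. Named genes are the 10 of smallest p in each direction with a mean log2 CPM of at least 1, the 3 of smallest p in each list described, a set of fixed genes, of which 1 is not reported here, and genes called without TAM replicate 2, which were named after their values were seen; not every gene of this rule is printed. Promoters are from RefSeq.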

Additional observations from a re-analysis of the deposited data

How the results depend on the processing

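Between TAM and DOX the count of called genes was 0 with RLE size factors, no filter, limma voom, the replicate block, a fit limited to both drugs, and the lens-fibre score as a covariate or limited to libraries under 4. It was 130 with DESeq2 and 3, 4 and 3 transcripts with FPKM plus 1, FPKM plus 0.1 and FPKM plus 1 with a mean of at least 1 (in Ndufc1, Rbfox2, Lrpap1, Clk4 and Ppp1r3f, chosen after their values were seen). Leaving out a library gave 0 to 49. For BMT against MDB DESeq2 gave 716 and FPKM plus 1 and plus 0.1 gave 2 and 3 transcripts (in Scamp1 and Hnrnpl, and in Angel2, Esd and Mia3); leaving out a library gave 0. For the difference of both effects DESeq2 gave 4, and leaving out a library gave 0 to 24. TAM against light gave 298 in a fit of only those groups and 608 to 2458 with a library left out. DOX against light gave 1065 in a fit of only those groups, 1158 with FPKM plus 0.1, 1209 with FPKM plus 1 and a mean of at least 1, and 468 to 2304 with a library left out. The difference in light score, -14.5 percentage points for TAM minus DOX, ran from -34.9 to -3.56 with a library left out. The cause of these changes was not tested. The samples share only a replicate number: same-numbered libraries deviated together with r of -0.23, -0.22 and 0.11, and the replicate block called 0 genes (2405 at an unadjusted p under 0.05).

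Of 64 genes named, DESeq2 called 24 and the edgeR test without TAM replicate 2 called 19 that had not passed. Limma voom called none and kept the sign of all 64, but the size of single values differed with all libraries kept. It gave -1.43 for Gfap, -2.47 for Prss56, -1.83 for Serpina3n, -0.56 for Edn2, -1.48 for Socs3 and -2.01 for Junb. The edgeR values were -0.78, -1.19, -0.39, -0.01, -0.46 and -1.22, in that order. Among those smaller in size with limma voom were Jund (-0.75 against -0.79) and Glul (0.02 against 0.16). With the GC slope as a covariate the log2 fold change changed sign for 15: Adra1b 0.13, Serpina3n 0.33, Edn2 0.36, Glul -0.041, Opn1sw 0.045, Xist -0.073, Junb 0.017, Stat3 0.14, Socs3 0.29, Nes 0.019, Cebpd 0.11, Bcl3 0.39, Gadd45b 0.15, Gadd45g 0.13 and Drd4 0.16. The slope itself separates the drugs, so these values also lack part of any drug difference. With libraries under a lens-fibre score of 4 the log2 fold change changed sign for 10: Serpina3n 0.056, Edn2 0.29, Glul -0.088, Opn1mw -0.033, Stat3 0.18, Socs3 0.094, Nes 0.044, Bcl3 0.30, Gadd45b 0.19 and Crym 0.089. That setting compares TAM replicates 2 and 3 with DOX replicates 1 and 3. Lens content and the larger weight of TAM replicate 2 cannot be told apart in it. Leaving out TAM replicate 1 alone changed the sign for 8 genes, and leaving out TAM replicate 3 alone for 9. Leaving out TAM replicate 2 changed it for 1, and leaving out DOX replicates 1, 2 and 3 for 1, 1 and 2. For its transcript of highest FPKM Adrbk1 stood at 0.024, 0.025 and 0.024 in the FPKM settings. With a library left out the sign changed for Serpina3n (-3.82 to 0.16), Edn2 (-1.75 to 0.42), Glul (-0.064 to 0.51), Opn1sw (-0.28 to 0.23), Opn1mw (-0.16 to 0.15), Stat3 (-1.18 to 0.13), Socs3 (-3.04 to 0.037), Bcl3 (-3.64 to 0.22), Gadd45b (-2.38 to 0.21) and Crym (-1.53 to 0.11). None of these genes passed with all libraries. Every library of the single-drug light group and every MDB library had a lens-fibre score above 4, so that setting was not run for the comparisons with them. No alternative was run for the comparisons with no light or for light against no light in the mixture experiment. Depth limits the alpha-1 receptors, whose levels stayed at or below 3.00 CPM in both groups.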
